A study of Mus musculus with 7 samples.

Results

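The open chromatin of untreated RAW264.7 cells was described from the 53758 regions of the genome that carried an ATAC-seq peak in both untreated libraries, called shared regions here. They were found by joining overlapping or touching peaks of the 2 lists into 192264 regions and keeping those with a peak of each library, so shared regions made up 28.0% of the joined set. The other 76279 regions came from replicate 1 only and 62227 from replicate 2 only. RAW264.7 is a mouse macrophage line, established from a tumour induced by Abelson leukaemia virus, and is widely used because RANKL turns it into osteoclast-like cells. It is a transformed line and stands in for primary precursors only in part.

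The series holds 7 ATAC-seq libraries of this line, each from 50000 cells. The untreated group (2 libraries) received neither RANKL nor I-BET. The other 5 libraries were taken after 4 h with RANKL at 50 ng/ml (2 libraries), RANKL with I-BET, a BET bromodomain inhibitor, at 500 nM (2 libraries), or I-BET without RANKL (1 library). They serve here to show whether an untreated region was called elsewhere, and as the other side of 2 tests between libraries. The labels give the cell line as Raw264.7 but the source as bone marrow, and they do not say whether the replicates were separate cultures.

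ATAC-seq uses a transposase that inserts sequencing adapters where DNA is not packed into nucleosomes, so a peak marks an accessible stretch such as an active promoter or enhancer. In macrophages the accessible landscape is set in large part by the ETS factor PU.1, encoded by Spi1, which acts with C/EBP, IRF, RUNX and AP-1 factors. Promoters rich in CpG dinucleotides, typical of housekeeping genes, are accessible in most cell types, whereas promoters poor in CpG tend to open only in the lineages that use the gene. Accessibility is not expression, which was not analysed here. In a bulk library a region open in few cells and a region open weakly in many cannot be told apart.

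The regulatory sequences below give the kinds of promoter that the results turn on. Each is the 250 bases before a gene start from RefSeq (GRCm38.p6, the build also named mm10), written 5′ to 3′ on the strand of the gene. Capitals mark matches on either strand to 3 motifs. The PU.1 box was searched as GAGGAAGT. The GC box, which SP1 binds, was searched as GGGCGG, and the TATA box as TATAAA. The 3 motifs share no letters at any match shown, and a match is a description of the letters, not a site in use. Polr2a, the large subunit of RNA polymerase II, stands for a CpG-rich promoter with a shared region, and Aim2, a cytosolic DNA sensor, and S100a8, a calcium-binding alarmin of myeloid cells, for CpG-poor ones with a shared region and a PU.1 box. Cd72, a receptor with an inhibitory motif known from B cells, also had both. Prtn3, the granule protease proteinase 3, has a PU.1 box but no shared region over its promoter, and Cd79a, a B cell receptor chain, has neither. The 6 were chosen after their values had been seen.
Polr2a (chr11:69758634-69758883, minus strand): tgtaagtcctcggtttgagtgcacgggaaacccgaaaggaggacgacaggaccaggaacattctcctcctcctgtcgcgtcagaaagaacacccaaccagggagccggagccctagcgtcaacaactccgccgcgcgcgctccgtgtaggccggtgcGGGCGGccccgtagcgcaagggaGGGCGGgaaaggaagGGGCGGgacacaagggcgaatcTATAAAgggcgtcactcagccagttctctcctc
Aim2 (chr1:173420354-173420603, plus strand): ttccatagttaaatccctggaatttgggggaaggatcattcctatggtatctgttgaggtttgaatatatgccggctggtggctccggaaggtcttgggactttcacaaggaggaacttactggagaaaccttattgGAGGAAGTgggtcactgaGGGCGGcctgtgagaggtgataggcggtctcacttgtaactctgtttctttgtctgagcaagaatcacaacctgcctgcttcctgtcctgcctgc
S100a8 (chr3:90668821-90669070, plus strand): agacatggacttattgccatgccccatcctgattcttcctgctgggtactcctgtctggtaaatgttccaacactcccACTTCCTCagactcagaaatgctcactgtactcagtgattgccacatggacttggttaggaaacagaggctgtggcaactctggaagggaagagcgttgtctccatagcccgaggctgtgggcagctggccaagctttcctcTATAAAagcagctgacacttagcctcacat
Cd72 (chr4:43454627-43454876, minus strand): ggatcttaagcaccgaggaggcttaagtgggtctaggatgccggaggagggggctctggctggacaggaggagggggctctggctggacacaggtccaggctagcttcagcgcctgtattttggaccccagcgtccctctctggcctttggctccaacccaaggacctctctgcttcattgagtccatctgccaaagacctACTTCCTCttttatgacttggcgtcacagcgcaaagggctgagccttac
Prtn3 (chr10:79879417-79879666, plus strand): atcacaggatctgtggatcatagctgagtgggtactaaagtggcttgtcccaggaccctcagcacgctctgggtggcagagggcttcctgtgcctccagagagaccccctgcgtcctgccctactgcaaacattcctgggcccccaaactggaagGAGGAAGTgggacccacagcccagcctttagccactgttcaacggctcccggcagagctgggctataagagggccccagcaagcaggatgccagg
Cd79a (chr7:24897247-24897496, plus strand): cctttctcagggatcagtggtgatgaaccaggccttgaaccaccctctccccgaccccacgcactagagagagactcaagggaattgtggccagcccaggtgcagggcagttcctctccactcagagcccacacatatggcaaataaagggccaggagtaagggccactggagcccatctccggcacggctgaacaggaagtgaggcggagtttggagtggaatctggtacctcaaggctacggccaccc

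In the Polr2a sequence the GC boxes begin 93, 70 and 55 bases before the start and the TATA box 33 bases before it. The region over Polr2a stood at the 99.3rd percentile of its list in replicate 1 and at the 97.4th in replicate 2. The PU.1 box begins 113 bases before the start in Aim2, 172 in S100a8, 49 in Cd72 and 95 in Prtn3. The Aim2 region ranked at percentiles 95.2 and 89.3, the S100a8 region at 92.7 and 98.3, and the Cd72 region at 91.5 and 99.2. Over all promoter windows with a PU.1 box, 53.6% met a shared region, and 30.0% of the CpG-poor ones among them did.

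The 2 untreated libraries differed, and this touches every result. Replicate 1 had 136739 peaks and replicate 2 had 117175, and the deposited −log10 q was at least 5 for 25.3% of peaks in replicate 1 against 61.3% in replicate 2. Read totals are not given. The folds imply a background pileup of 2.55 and 1.81 and let the number of reads or fragments stacked at each summit be recovered. Of the regions of replicate 1, 41.3% were shared, and of those of replicate 2, 46.3%. Regions of replicate 1 only were called in 6.81% to 16.6% of cases in each of the other 5 libraries, and regions of replicate 2 only in 40.3% to 79.7%. Much of what replicate 1 alone called was therefore not seen again, while many regions of replicate 2 alone were seen again in treated cells.

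The share of peaks that were shared rose with their height. Of peaks with under 10 stacked reads or fragments, 16.1% in replicate 1 and 15.8% in replicate 2 lay in a shared region. Between 15 and 19 the shares were 86.9% and 40.1%, and at 100 or more 99.99% (6862 of 6863 peaks) and 99.9% (8340 of 8348). At every height from 10 to 99 a peak of replicate 1 was shared more often than one of replicate 2. Of the strongest 10% of each list, 99.8% lay in a shared region in both libraries, and 9424 regions were in the strongest 10% of both. The set thus holds nearly all strong peaks and a small part of the weak ones.

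**Figure D1:**
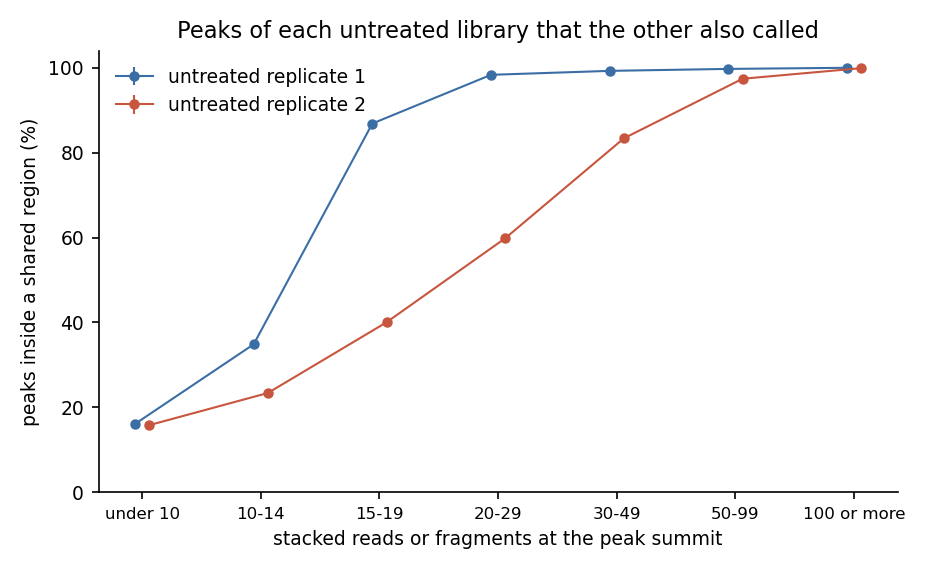
Share of each untreated library's peaks that lie in a shared region (y axis, percent) by the height of the peak summit in stacked reads or fragments (x axis, bins). Points are libraries and bars are exact 95% binomial intervals, mostly smaller than the points; both libraries start near 16% for peaks under 10 and pass 99% at 100 or more, but replicate 1 rises earlier.

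Within the shared set the median summit held 17 stacked reads or fragments in replicate 1 and 36 in replicate 2, against 10 in the regions called by 1 library, for both. The middle shared region stood at percentile 78.9 of replicate 1 and 76.2 of replicate 2. Over the 53758 regions the percentiles of both libraries were related with a Spearman rho of 0.798 and a Pearson r of 0.666. At gene starts rho was 0.857, inside genes 0.710 and between genes 0.691. These are descriptions across regions of the same libraries, which share sequence content and mappability. The lower of a region's 2 percentiles is used below as its signal rank, so that a high rank needs both libraries.

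Shared regions had a median width of 789 bp (5th to 95th percentile 347 to 2461 bp) and together spanned 55.7 Mb. Regions at a gene start, here within 1 kb of one, had a median of 1500 bp, against 690 bp inside genes and 676 bp between genes. The stretch covered by both libraries was shorter, with a median of 478 bp. In 88.0% of regions each library had 1 peak, and 18 regions were joined only because peaks touched end to end. The summits of both libraries lay a median of 64 bp apart, and 60.3% were within 100 bp. Regions called by 1 library were narrower, at a median of 219 bp for replicate 1 and 309 bp for replicate 2, and wider peaks meet more easily under the rule for shared regions.

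**Figure D2:**
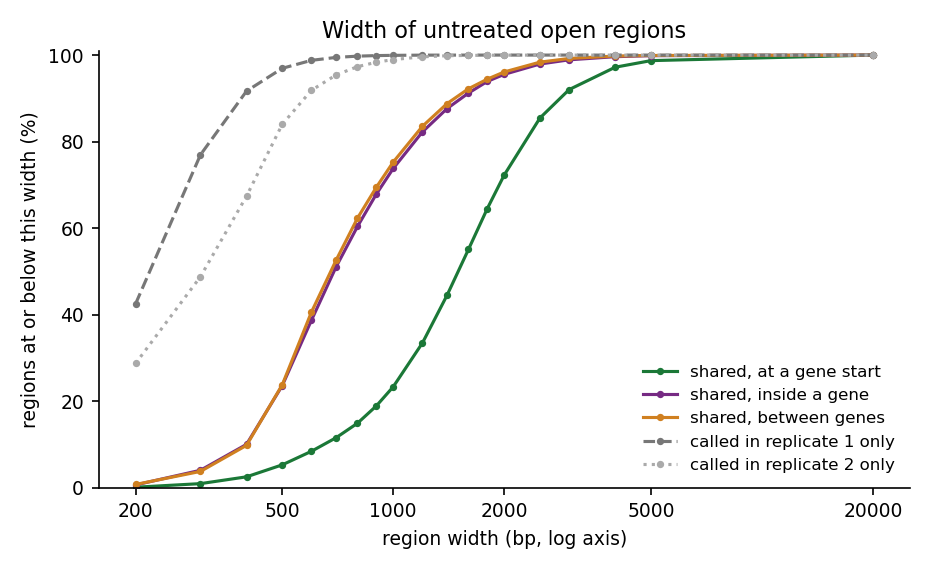
Cumulative share of regions (y axis, percent) by width in bp (x axis, log scale) for shared regions at a gene start, inside a gene and between genes, and for regions of 1 library. Shared regions at gene starts lie furthest to the right (median 1500 bp), and the curves inside and between genes almost coincide (690 and 676 bp).

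The longest shared region, 16044 bp within Plec (chr15:76193515-76209558), the gene of the cytoskeletal linker plectin, was 1 peak in replicate 2 and 6 in replicate 1, and 14193 bp were covered by both. Next came 12251 bp at Zbtb7b (chr3:89384840-89397090), which encodes the zinc finger factor ThPOK, with 10035 bp in both libraries. The others were 11677 bp at Tnrc18, 11491 bp lying 126 bp from Frmd8, 10809 bp over Midn and Cirbp, 10481 bp over Mroh2a and Hjurp, 9720 bp at Cspg4, the gene of the proteoglycan NG2, and 9501 bp over Inf2 and Adssl1. In 7 of these 8 regions replicate 2 had 1 peak where replicate 1 had 4 to 8, and the Mroh2a region was the exception with 2 peaks in replicate 1 and 5 in replicate 2. Of the 205 regions of at least 5 kb, 156 lay at a gene start. The Mroh2a region had folds of 8.74 and 9.60, while the Plec region reached 67.7 and 84.2. The fold, the authors' ratio of pileup to background, is used only within a list.

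Of the shared regions 12148 (22.6%) lay at the start of a protein-coding gene, 23604 (43.9%) elsewhere inside a gene and 18006 (33.5%) between genes. Those between genes lay a median of 14.9 kb from the nearest gene, and 1856 lay over 100 kb away. Among regions of 1 library only 3.94% (replicate 1) and 5.73% (replicate 2) were at a gene start. The share at gene starts rose with rank: they made up 7.02% of shared regions with a signal rank of 0 to 20, 10.8% at 60 to 80, 65.4% at 90 to 99 and 88.9% at 99 to 100. Around 21238 listed gene starts, a shared region covered the start itself in 50.8% of cases, the base 1000 bp upstream in 17.7% and the base 1000 bp into the gene in 23.4%. Near the start the open stretch thus reached further into the gene than upstream. At 5000 bp coverage was 5.38% upstream and 5.06% into the gene.

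**Figure D3:**
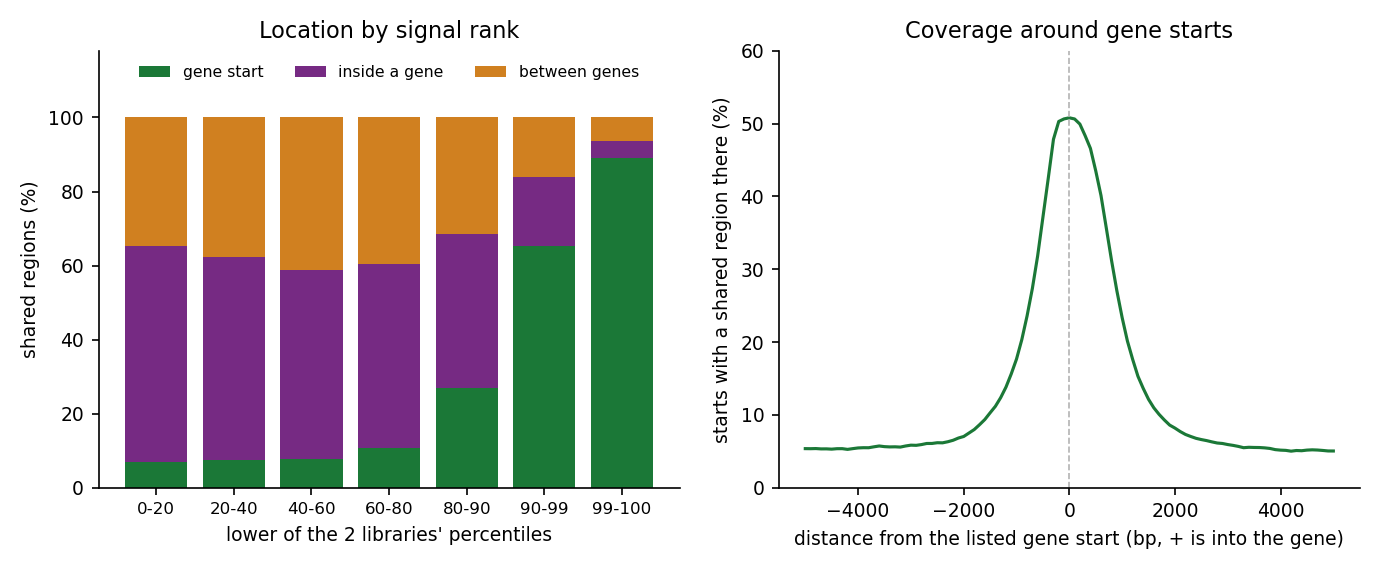
Left, location of shared regions (y axis, percent of regions) by signal rank, the lower of the 2 libraries' percentiles (x axis). Right, share of 21238 listed gene starts (y axis, percent) with a shared region at each distance (x axis, bp); gene starts rise from 7.02% to 88.9% of regions with rank, and coverage is highest at the start itself, at 50.8%.

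Across libraries, the share of all peaks at a gene start was 11.9% and 13.6% in the untreated libraries and 10.2% to 12.8% in the other 5, so the groups overlapped (means 12.7% and 11.7%, 2 against 5 libraries, two-sided exact permutation test over 21 splits p = 0.381, adjusted p = 0.667 over 2 tests). The median peak width was 284 and 447 bp in the untreated libraries and 322 to 489 bp in the others, again overlapping (means 365.5 and 407.8 bp, two-sided exact permutation test p = 0.667, adjusted p = 0.667). The smallest p that 2 against 5 libraries allow is 0.0952, so neither test could pass 0.05. Without untreated replicate 1, the difference in median width turned from -42.3 bp to 39.2 bp. Most shared regions were not particular to untreated cells: 89.4% to 97.4% were called in each of the other 5 libraries, 83.4% in all 5, and 802 (1.49%) in none. The 802 were weak, with median summits of 10 and 8 stacked reads or fragments, and 6.11% of them lay at a gene start, against 25.6% of the regions called in all 5.

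The strongest shared regions were not typical promoters. The 12 with the highest signal rank had folds of 539 to 3029 in replicate 1 and 358 to 3117 in replicate 2, against medians over all shared regions of 5.08 and 13.2 and 99th percentiles of 90.5 and 79.3. The leading region lay between genes, 61662 bp from Ccnh (chr13:85126360-85127714), with 10178 stacked reads or fragments at the summit in replicate 1 and 7742 in replicate 2. The next were 828722 bp from Tyrp1 (chr4:80002138-80005400), inside Myo3a (chr2:22587086-22590734) and at the start of Gm20594 (chr6:79817894-79818547), the only 1 of the 12 at a gene start. The other 8 lay inside Zfp804b and Stxbp4 or nearest to Eea1, Gdf6, G6pd2, Bambi, Ric8b and Slc25a54, the last 6 between genes at distances of 3363 bp to 1765547 bp. All 12 ranked among the first 15 of each of the 7 lists, and the Gm20594 region was the fourth in every list. These loci therefore led the lists of treated and untreated cells alike. The sequence of these regions was not analysed here. No filter for repeated or poorly mappable regions was applied to the peak lists, and the part of mappability or copy number in these counts was not tested.

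Of the gene-start regions, the strongest after Gm20594 was at Hjurp, the chaperone of the centromeric histone CENP-A, with folds of 224 and 184 (chr1:88272577-88278703). The 100 kb window that holds it (chr1:88200001-88300000) had 68.8% of its bases in shared regions, against 39.9% in the next most covered window. Whether copy number or repeated sequence raises the signal there was not tested. The region shared by Etfdh, a mitochondrial electron-transfer enzyme, and 4930579G24Rik had folds of 191 and 172. Sap130, a subunit of a histone deacetylase complex, followed with 163 and 155, Trim45, a ubiquitin ligase, with 162 and 189, and Mtmr4, a phosphoinositide phosphatase, with 147 and 132. The next were Stt3a, the catalytic subunit of an oligosaccharyltransferase, with 162 and 127, and Khsrp, an RNA-binding factor that lies beside Slc25a41, with 135 and 134. Apart from Gm20594, these regions were 1857 to 6127 bp wide.

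Some genes held many shared regions. Zfp469, a zinc finger gene, had the most, 44 in the gene or within 10 kb of it, followed by Gse1 with 43, Zmiz1, a coactivator of the androgen receptor and Notch, with 40, and Tns3, a focal adhesion protein, with 37. Aopep, an aminopeptidase gene, and Cux1, a homeobox factor, had 35 each. Asap1, an Arf GTPase-activating protein, Cmip and Sgms1, which makes sphingomyelin, had 34 each. The median over all 21887 protein-coding genes was 2, and 844 genes had at least 10. These 9 genes were long, at 204 to 361 kb. Per 100 kb of gene with its flanks they held 9.18 to 17.6 regions.

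Of 21887 protein-coding genes, 11961 (54.6%) had a shared region at the gene start, and 71.0% had one in the gene or within 10 kb. The gene-start regions of those genes had a median signal rank of 92.1, the best region of each gene being counted. Gene starts came from RefSeq promoters for 17492 genes (54.8% with a region), and for the other 4395, among them Spi1, Csf1r and Nfatc1, either gene end was used (54.2%). For the latter genes a region at the end far from the start also counted. Against the share of all genes, 18 gene lists of 370 genes were read. In the 6 lists of genes that a macrophage line, an osteoclast precursor or any cell should use, 136 of 149 genes (91.3%) had a shared region at the start. In 2 lists of inducible genes it was 37 of 49 (75.5%), and in 10 lists of other cell types 44 of 172 (25.6%). The 6 lists include housekeeping and signalling genes that do not mark the cell type, and the macrophage list alone had 23 of 28. When peaks had to overlap over 50% of both, 47.4% of all genes had a region at the start, and 105 of the 149, 26 of the 49 and 27 of the 172 genes did.

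**Figure D4:**
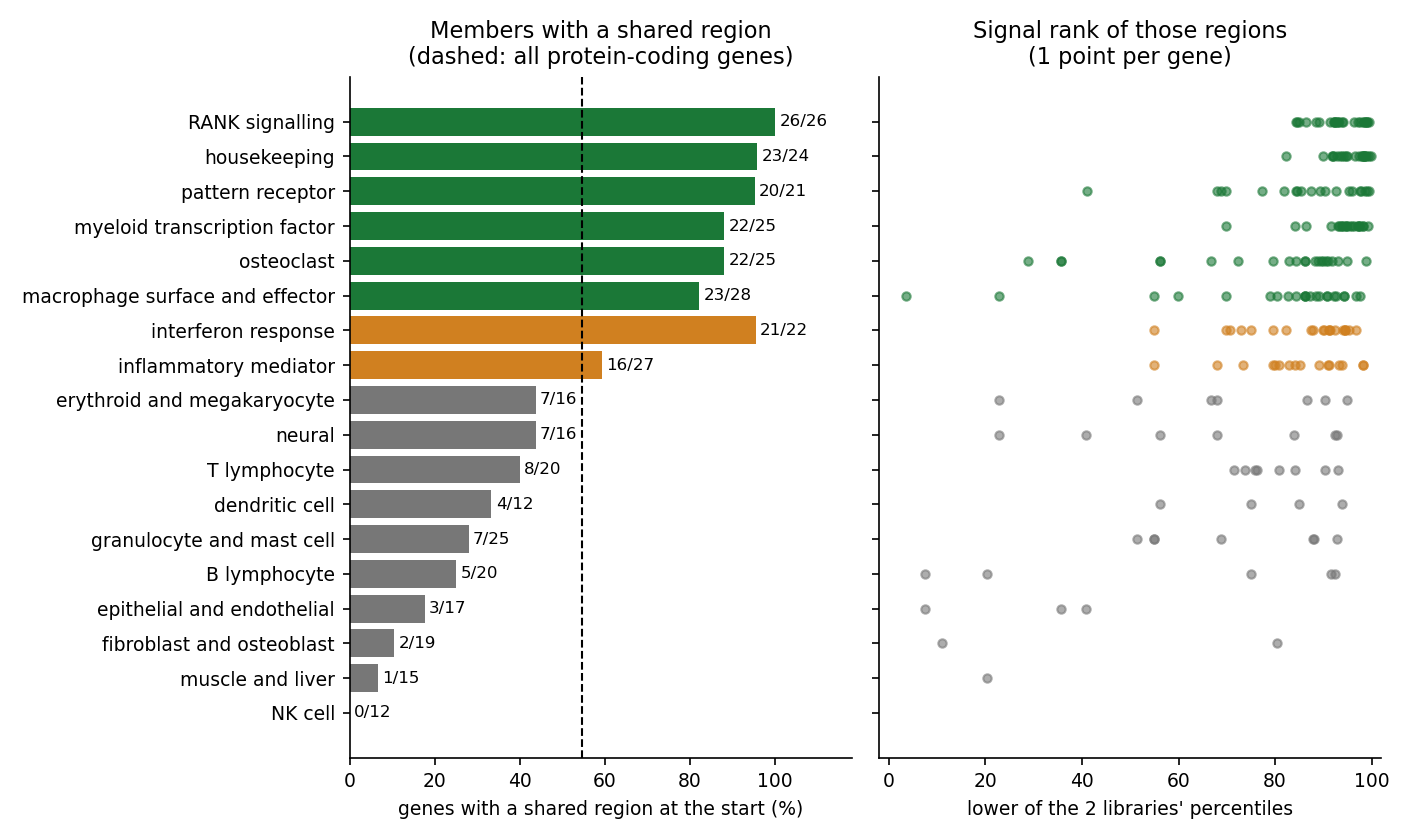
Left, share of each gene list with a shared region at the gene start (bars, percent, counts beside them), with 54.6% of all protein-coding genes as the dashed line. Right, signal rank of those regions, 1 point per gene; all 26 RANK signalling genes are present with ranks from 84.4 up, while NK cell genes have none.

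Lineage factors were mostly open at the start. Of 25 myeloid transcription factors 22 had a shared region at the start, with a median rank of 94.8 and a range of 69.8 to 99.1. Over all genes with a start region the median rank was 92.1. Cebpa, the C/EBP factor that commits progenitors to the myeloid line, led with percentiles 99.1 and 99.2 (chr7:35117859-35121491). Klf6 stood at 99.1 and 98.2 and Egr1, an immediate early factor, at 99.4 and 98.1. The lowest was Maf, a bZIP factor, at 69.8 and 72.2. The 3 without a shared region were Tfec, of the MiT family, and Pparg, the lipid-sensing nuclear receptor, each with a peak at the start in replicate 2, and Gata6, the factor of peritoneal macrophages, with one in replicate 1. The nearest shared region was 5908 bp from the start of Tfec, 12641 bp from that of Pparg and 158046 bp from that of Gata6. Tfec was called at its start in all 5 treated libraries, Pparg in 4 and Gata6 in 1.

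Spi1 (chr2:91082374-91115759) had 11 shared regions in the gene or within 10 kb. The one over its lower gene end, counted as the start, was 7766 bp long (chr2:91080624-91088389). It stood at percentile 93.6 in replicate 1 and 97.1 in replicate 2, and a region of 3593 bp inside the gene at 91.5 and 94.0. Irf8, a factor that favours the monocyte over the granulocyte fate and restrains osteoclast formation, had 5 regions. The start region of Irf8 held 80 and 65 stacked reads or fragments at its summit, at percentiles 93.8 and 86.4, and the lowest of the 5 ranked at 72.2. The start regions of Spi1 and Irf8 were also called in all 5 treated libraries.

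Surface and effector genes of macrophages were open less evenly. Of 28 genes 23 had a shared region at the start, with a median rank of 86.2 and a range of 3.63 to 97.7. This median lay below the 92.1 of all genes with a start region. Cd68, the lysosomal glycoprotein used to mark macrophages, led with percentiles 97.7 and 99.4, in a region of 5113 bp. Tyrobp, the adaptor DAP12 of myeloid receptors, stood at 97.2 and 96.8, and Lgals3, galectin-3, at 94.4 and 95.4. Csf1r, the receptor for the macrophage growth factor CSF1, had 8 regions in or near the gene, 5 of them overlapping it. The strongest lay in the gene, 5113 bp long, with percentiles 94.4 and 99.5, and those at the gene ends at 86.2 and 86.4 and at 83.3 and 95.5. Adgre1, which encodes the F4/80 antigen, stood at 86.2 and 89.9, Itgam, the CD11b integrin chain, at 78.9 and 84.4, and C1qb, a complement chain, lowest at 40.8 and 3.63.

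No shared region at the start was found for Marco, Cybb, Ccr2, Vsig4 and Timd4. Marco, a scavenger receptor, Ccr2, the chemokine receptor of inflammatory monocytes, and Vsig4, a complement receptor of resident macrophages, had no peak there in either untreated library. Timd4, a receptor for phosphatidylserine on resident macrophages, had one in replicate 1 only. Cybb, the catalytic subunit of the phagocyte oxidase, had a peak in replicate 2 and in all 5 treated libraries, 6 shared regions inside the gene, and the nearest of them 1231 bp from the start. Ccr2 and Vsig4 were called at the start in none of the 7 libraries. When peaks had to overlap over 50% of both, 13 of the 28 genes had a shared region at the start, a share close to the 47.4% of all genes at that setting.

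Pattern receptors and their adaptors were open at 20 of 21 starts, with a median rank of 88.4. All genes with a start region had a higher median, 92.1. Myd88, the adaptor of most Toll-like receptors, stood at percentiles 99.5 and 99.6, and Irak4, the kinase downstream of Myd88, at 98.6 and 99.6. Tlr2, the receptor for bacterial lipoproteins, had 242 and 280 stacked reads or fragments at the summit, and Tlr4, the receptor for lipopolysaccharide, 171 and 160. The lowest was Tlr1 at 75.7 and 41.0. Tlr8, a receptor for RNA next to Tlr7 on the X chromosome, had no shared region at the start but a peak in replicate 2, while Tlr7 had one at 88.3 and 84.4.

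All 26 genes of RANK signalling had a shared region at the start, with a median rank of 93.1 and no rank below 84.4. The median was close to the 92.1 of all genes with a start region. Tnfrsf11a, which encodes RANK, the receptor of RANKL, stood at percentiles 88.5 and 90.6 at the start. Its strongest region lay inside the gene, 2087 bp long, at 93.9 and 98.6, and it had 10 regions in all. Relb, the NF-kB subunit of the alternative pathway, led the list at 99.7 and 99.4. Jun, an AP-1 subunit, stood at 99.8 and 99.1, and Map3k14, the NF-kB-inducing kinase, at 99.8 and 99.1. The lowest were Ikbkb at 92.3 and 84.4 and Chuk at 92.7 and 84.6, the kinases that phosphorylate IkB. The receptor and all listed genes downstream of it thus had accessible starts in cells that received no RANKL. Of these genes 20 had a listed start, and for the others a region at either gene end was counted.

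Osteoclast genes were open at 22 of 25 starts, with a wider spread, from 28.8 to 98.9 with a median of 86.2. That median too was below 92.1, the value for all genes with a start region. Slc4a2, the anion exchanger that balances acid secretion, led at 98.9 and 98.9. Tcirg1, a subunit of the osteoclast proton pump, stood at 96.4 and 94.8, and Itgav, the αv integrin chain, at 93.5 and 93.1. Nfatc1, the main inducible factor of osteoclast differentiation, stood at 94.9 and 89.9 at a gene end and had 22 shared regions in or near the gene, 20 of them overlapping it. Another of its regions, 9343 bp long, lay 519 bp from the end region and stood at 95.1 and 98.4. Some members ranked lower at the start. Acp5, tartrate-resistant acid phosphatase, had 31 and 24 stacked reads or fragments at its start region and percentiles 87.2 and 66.8, below a region outside the gene at 96.8 and 91.9. Ctsk, the collagen-degrading cathepsin K, stood at 83.9 and 56.2, and its strongest region, beyond the other gene end, at 90.4 and 92.3. Itgb3, Src and Mmp9 had ranks of 35.7, 35.7 and 28.8. Itgb3 and Mmp9 had no listed start, so a region at either gene end was counted for them. The region ranked for Mmp9 lay beyond its upper gene end. Either gene end was also counted for Nfatc1, Ocstamp, Siglec15, Car2, Dcstamp and Atp6v0d2.

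The osteoclast genes without a shared start region were Mmp14, a membrane-bound matrix protease, Calcr, the calcitonin receptor of mature osteoclasts, and Cthrc1. Calcr had a peak at the start in replicate 1 and in none of the treated libraries, and its nearest shared region lay 172938 bp away. Cthrc1 had peaks of both libraries near its gene ends that did not meet. When peaks had to overlap over 50% of both, 14 of the 25 genes had a start region, against 47.4% of all genes.

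**Figure D5:**
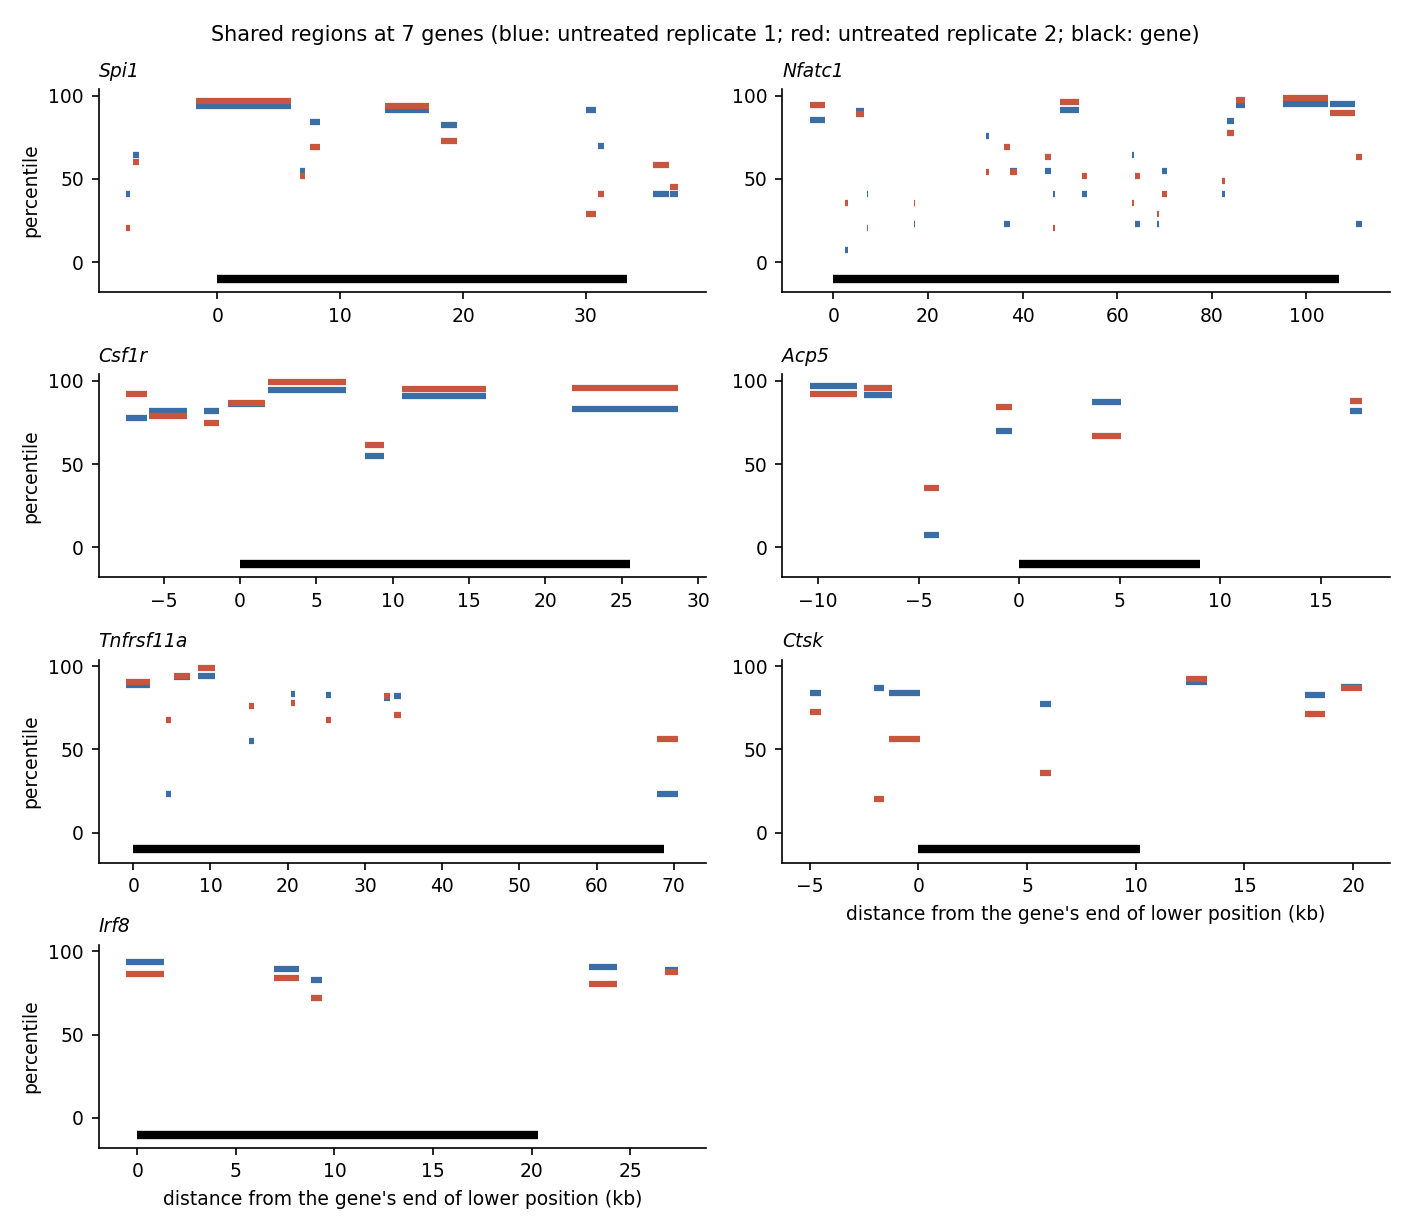
Shared regions in or within 10 kb of 7 genes: x axis, distance in kb from the gene's end of lower position; y axis, percentile in each list, blue for untreated replicate 1 and red for untreated replicate 2, with the gene as a black bar. Spi1 and Csf1r have strong regions at the gene in both libraries, and the start regions of Acp5 and Ctsk (66.8 and 56.2 in replicate 2) lie below other regions nearby.

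Housekeeping genes were open at 23 of 24 starts with a median rank of 96.6. Eef1a1, a translation elongation factor, stood at folds of 71.4 and 82.5. The exception was Ywhaz, a 14-3-3 gene without a RefSeq start here, whose strong region of 3361 bp (chr15:36791490-36794850, percentiles 99.7 and 99.8) lay inside the gene and away from both ends.

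Inducible genes split by kind, but the size of the gap depended on the rule for shared regions. Interferon response genes were open at 21 of 22 starts with a median rank of 90.1, and at 13 of 22 when peaks had to overlap over 50% of both, against 47.4% of all genes. Irf9 and Stat2, which belong to the interferon-activated ISGF3 complex, stood at 96.8 and 98.7 and at 97.5 and 94.5. Oas3, an antiviral oligoadenylate synthetase, stood at 95.4 and 99.2 and Irf2 at 97.7 and 94.6, and Ifit3 had no shared region at the start. Inflammatory mediators were open at 16 of 27 starts, close to the 54.6% of all genes, with a median rank of 84.6. With overlap over 50% of both it was 13 of 27. With replicate 2 alone, 22 of 22 interferon and 23 of 27 inflammatory genes had a start region, and with replicate 1 alone 21 and 18. Of all 21887 genes 13155 and 13409 had one in these single libraries. The chemokine genes Ccl3 and Ccl4 shared 1 region at 98.4 and 98.3, since the annotated Ccl4 overlaps Ccl3. Tnf stood at 95.1 and 93.8. Il6 stood at 81.0 and 79.6 and Nos2, inducible nitric oxide synthase, at 73.4 and 67.9. The 11 without one were Il1a, Il1b, Il12a, Ccl5, Ccl7, Ccl22, Cxcl1, Cxcl9, Ifnb1, Csf2 and Csf3, and 9 of these had a peak at the start in 1 untreated library.

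Genes of other blood lineages mostly had no shared region at the start. Of 20 B cell genes 5 had a shared region: Blnk, a signalling adaptor, at percentiles 92.4 and 94.1, Cd72 at 91.5 and 99.2, Bank1 with summits of 29 and 34 stacked reads or fragments, Blk at 73.4 and 20.3, and Ebf1 at 7.55 and 75.6. The 15 others included Cd79a, Cd79b, Ms4a1, which encodes CD20, Pax5 and both Rag genes. Of 20 T cell genes 8 had one: Gata3 (96.4 and 93.1), Cd5 (90.3 and 90.2), Lck (93.7 and 84.1), Cd4, Il7r, Cd6, Tcf7 and Cd28. Blk, Cd4, Cd6 and Cd28 had no listed start, so their regions may lie at the gene end far from the start. Among the 12 T cell genes without a shared region were Cd3e, Cd3d and Cd3g, whose chains belong to the T cell receptor complex, Cd8a and the kinase gene Zap70. None of the 12 NK cell genes had a shared region at the start, and 8 had no peak of either library there. The lymphoid genes that were open therefore included signalling and transcription factor genes with high ranks, while the defining receptor genes were among those without a region.

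Of 25 granulocyte and mast cell genes 7 had a shared region at the start: S100a8 (92.7 and 98.3), Elane (88.5 and 88.1), Cebpe (89.6 and 87.8), Csf3r, Gfi1, Gata2 and Hdc. S100a9, the partner of S100a8, Mpo, Prtn3, Ctsg, Camp and Kit had none. Of 16 erythroid and megakaryocyte genes 7 had one: Klf1 (96.5 and 94.9), Tal1 (93.2 and 90.2), Nfe2 (94.1 and 86.7), Epor, Pf4, Slc4a1 and Gp9. Gata1, the master factor of red cells, and Hba-a1, an α-globin gene, had no peak of either library at the start. The Elane region lay 959 bp from the gene, just inside the limit of 1 kb, and only replicate 2 had a peak within that limit. This region also overlapped the upper end of Prtn3. Of 12 dendritic cell genes Tcf4 (97.0 and 93.8), Itgax, the CD11c chain (84.9 and 93.4), Siglech (summits of 30 and 34 stacked reads or fragments) and Batf3 (77.5 and 56.2) had one. Cebpe, Nfe2, Slc4a1 and Tcf4 had no listed start, so a region at either gene end was counted for them.

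Genes of tissues outside the blood had few and weaker regions, apart from some neural ones. Of 19 fibroblast and osteoblast genes, only Col1a1, a collagen chain (88.1 and 80.5), and Bglap, osteocalcin (summits of 11 and 8), had one, and Runx2, Sp7, Pdgfra and Tnfsf11, which encodes RANKL itself, had none. Of 17 epithelial and endothelial genes Cdh5 (40.8 and 61.5), Kdr (69.8 and 35.7) and Pecam1 (summits of 8 and 8) had one, each with a rank of at most 40.8. Of 15 muscle and liver genes only Actc1 had one (55.0 and 20.3). Of 16 neural genes 7 had one: Mbp, a myelin gene (93.2 and 92.8), Slc17a7 (92.4 and 95.9), Neurog2 (83.9 and 91.1), Pax6, Tubb3, Sox10 and Dlx2. For Col1a1, Cdh5, Pecam1, Mbp and Sox10 no start was listed, so a region at either gene end was counted. Over these 10 lists, 28 of 172 genes had a start region when peaks needed a −log10 q of at least 5. With overlap over 50% of both it was 27. Of all 21887 genes, 10972 had one at the first setting and 47.4% at the second. With replicate 2 alone the count was 67 and with replicate 1 alone 69, against 13155 and 13409 of all genes. Counts of 1 library cannot be lower than that of both together.

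Base composition went with openness at promoters. In 21263 RefSeq promoter windows, from 250 bases before to 50 after a start, 51.6% met a shared region, and the ratio of observed to expected CpG had a median of 0.786 in those and 0.247 in the rest. In 5 groups of about equal size, from the lowest to the highest ratio, the shares were 8.54%, 22.8%, 58.0%, 81.1% and 87.5%. In the lowest 2 groups together, called CpG-poor here, it was 15.7%, and in the upper 3 it was 75.5%. The gene lists departed from these shares in both groups. Of the 57 CpG-poor windows of the 6 lists of resident genes, 41 (71.9%) met a shared region, among them 14 of 19 for macrophage genes and 14 of 16 for pattern receptors. Of the 32 of inducible genes 20 (62.5%) did, split into 14 of 16 for interferon response and 6 of 16 for inflammatory mediators, and of the 103 of other cell types 14 (13.6%), close to the 15.7% of all. At the CpG-richer windows 94 of 99 (94.9%) of the resident genes met a shared region and 11 of 12 of the inducible ones, but 14 of 46 (30.4%) of other cell types, below the 75.5% of all. Aim2 and S100a8 above are promoters of the CpG-poor kind that met a shared region, and Prtn3 and Cd79a ones that did not. Prtn3 nevertheless had a peak at its start in untreated replicate 1 and in 3 of the 5 treated libraries.

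Motifs were counted in the same windows, on both strands. The PU.1 box GAGGAAGT occurred in 3.13% of all windows, in 357 of 10969 with a shared region and 309 of 10294 of the rest, shares whose 95% intervals overlap. Among CpG-poor windows it was in 8.40% of those with a shared region (112 of 1333) and in 3.64% of the rest (261 of 7172). Of CpG-poor windows with the box, 30.0% were open. The excess was not particular to this motif. GGGCGG was in 24.5% of open and 10.1% of other CpG-poor windows, and CACGTG in 6.23% and 2.84%. Of CpG-poor windows with these motifs, 31.1% and 28.9% were open. CCAAT went the other way, in 35.3% of open and 40.2% of other CpG-poor windows. TATAAA occurred in 12.6% of all windows, in 11.9% of the CpG-poor open ones and in 23.5% of the CpG-poor others. Open CpG-poor windows were also richer in G and C, with a median of 52.7% against 46.7%, and the part of this in the motif counts was not tested. Among all windows the ETS motif CCGGAAGT, which shares its last 6 letters with the PU.1 box but cannot be the same match, was in 9.17% of open and 0.855% of other windows. The NRF1 motif, a palindrome rich in CpG, was in 2.32% and 0.282%, and GGGCGG in 66.7% and 24.4%. Over all windows the AP-1 motif TGANTCA went the other way, in 518 of 10969 open and 968 of 10294 other windows. The RUNX motif TGTGGTT did so too, in 370 and 632 of them. Within CpG-poor windows the AP-1 motif was in 12.8% of open and 11.1% of other ones. The RUNX motif was in 6.38% and 7.56% there, and for both motifs the 95% intervals overlapped. The ETS, NRF1 and GC box motifs hold CpG or are rich in G and C, as open windows are.

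MicroRNAs shorten the life of matching mRNAs, and several are known for 1 lineage. Of 1228 miRNA genes 275 (22.4%) had a shared region within 1 kb, and the miRNAs read here were chosen after the files were seen. A hairpin can lie far from the start of its primary transcript, so a missing region says nothing of the transcript's start. The mature sequences are from RefSeq with the seed, bases 2 to 8, in capitals.
mmu-miR-142a-5p: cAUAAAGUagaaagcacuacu
mmu-miR-21a-5p: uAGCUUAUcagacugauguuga
mmu-miR-146b-5p: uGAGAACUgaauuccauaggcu
mmu-miR-146a-5p: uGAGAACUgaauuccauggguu
mmu-miR-223-3p: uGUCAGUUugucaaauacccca
mmu-miR-155-5p: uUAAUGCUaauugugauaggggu

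Mir142, a miRNA gene of all blood lineages, lay in a shared region of 9060 bp over Tspoap1 (chr11:87753857-87762916), with 144 and 131 stacked reads or fragments and percentiles 96.8 and 96.3. Mir146b lay near 2 regions, the stronger at 95.9 and 96.9, and Mir21a near 2, the stronger with 18 and 77 stacked reads or fragments. Mir146, whose miR-146a-5p carries the same seed GAGAACU as miR-146b-5p, had no shared region within 1 kb. Mir223, of myeloid cells, and Mir155, induced in inflammation, had none either. Of the other miRNA genes read, Mir9-1, known from the nervous system, and Mir126a, of endothelium, had a weak one (22.9 and 56.2, and 64.2 and 28.8), and Mir122, Mir1a-1, Mir1a-2, Mir124a-1, Mir200b, Mir181a-1, Mir144, Mir451a and Mir150 had none.

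Shared regions were spread unevenly over the chromosomes. On the autosomes 56.3% of protein-coding genes had a shared region at the start, from 45.7% on chromosome 14 to 65.6% on chromosome 11, against 32.9% on the X chromosome (318 of 966) and 3 of 256 genes on the Y chromosome. Of the 5 longest stretches with protein-coding genes and no peak, 4 lay on the Y chromosome (5.70 to 47.7 Mb) and the other on chromosome 14 (3.78 Mb, 62 genes). The part of chromosome copy number and mappability in these differences and stretches was not tested. The densest window of 100 kb, with 27 shared regions, held Socs3, an inhibitor of cytokine signalling, and Pgs1.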

How the data were processed

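ATAC-seq peak lists of 7 RAW264.7 libraries were used, of which 2 were untreated. The submitters' processing notes name Bowtie2, MACS2, SAMtools, bedtools, Picard, cutadapt and FastQC, and build mm10; versions and settings are not given in the sources used here. Peaks were deposited per library, not pooled. The authors deposited for each peak a score (the whole part of 10 times −log10 p, as tested on the values), a fold of pileup over background, and −log10 p and −log10 q. Read totals are not given. Intervals cover counting error only.

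Overlapping or touching peaks of both untreated libraries were joined, and regions with peaks of both were kept. Signal was ranked within each list by −log10 p, which gave the same order as the fold. All folds were whole multiples of 1 step per library within 0.05, and summit pileups were computed from these with the usual MACS2 formula, in which 1 is added to pileup and background. Gene starts came from RefSeq promoters (GRCm38.p6) for 17492 genes and from either gene end for 4395. Named were the 12 strongest and 8 longest regions, the 8 genes with most regions and ties, the 3 highest of each gene list with the resident genes that lacked a region and the other-lineage genes that had one, the 5 longest stretches without peaks, and 8 fixed genes; some genes under this rule are not reported here. Further genes, the 13 motifs, the miRNAs and the printed promoters were chosen after values had been seen. The members and lists were chosen with earlier results of these data known. Mx1 and Mx2 of the interferon list were not in the gene table.

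Libraries were compared by two-sided exact permutation tests with Benjamini-Hochberg adjustment. The labels do not say that replicates were separate cultures, so p-values measure only the spread between these libraries, which may be technical. Scripts (Python 3.11.15, pandas 2.3.3, numpy 2.4.6, scipy 1.17.1) were tested on simulated data. The other settings tried were peaks with a −log10 q no lower than 5, peaks overlapping over 50% of both, lists of equal length, windows of 500 bp and 2 kb, the middle of the region, either gene end, each library left out, and a replicate block.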

Additional observations from a re-analysis of the deposited data

How the results depend on the processing

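With a −log10 q of at least 5, shared regions fell from 53758 to 30515, their share at a gene start was 34.2% in place of 22.6%, their median width 1128 bp in place of 789 bp, and 28 genes of other cell types had a start region in place of 44. Of all 21887 genes, 10972 had a start region at that minimum, in place of 11961. When peaks had to overlap over 50% of both, the share was 27.1%. At that overlap 27 genes of other cell types and 10364 of all genes had a start region. The share was 20.6% with a window of 500 bp, 26.8% with 2 kb and 20.5% by the middle of the region. Counting bases of both libraries alone, the median width was 478 bp. With 1 untreated library left out, the set was the other library's list, of 117175 to 136739 peaks, with 11.9% to 13.6% at a gene start, median widths of 284 to 447 bp and 67 to 69 genes of other cell types. Leaving out each of the 7 libraries, the untreated minus other difference in median peak width, -42.3 bp over all, ran from -123.8 bp to 39.2 bp, the last without untreated replicate 1, and that in the share of peaks at a gene start from 0.210 to 1.87 percentage points. Of the 18 gene-list counts, 0 moved by over 1.5 times with lists of equal length, 1 with 500 bp, 3 with 2 kb, 4 with either gene end, 6 with the −log10 q minimum, 8 with 50% overlap, and 4 and 5 without untreated replicate 1 and 2. With the replicate number as a replicate block, chosen after seeing the data, the differences were -39.9 bp (-109.5 bp within number 1, 29.7 bp within number 2, two-sided exact permutation p = 0.833) and 0.993 percentage points (-0.0605 and 2.05, p = 0.333). These 12 splits allow no p below 0.167. Nothing in the labels ties libraries of 1 number to a common culture or day. Read totals are not given, and the part of depth in which peaks were shared was not tested. Peaks of under 10 stacked reads or fragments were mostly called in 1 library, and a gene without a shared region may have been below detection at this depth.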
